A study of Mus musculus with 9 samples.

Results

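The comparison set the prefrontal cortex (PFC) of Rag1-/- mice given extracellular vesicles from WT mice (Rag1-/- + WT EVs, replicates 2, 3 and 5) against that of Rag1-/- mice given vehicle (Rag1-/- + vehicle, replicates 1, 2 and 3), and asked which transcripts changed when WT EVs replaced medium. It used 6 of the 9 RNA-seq libraries of the series, chosen by their labels, and 17948 genes with enough reads to test. The study's methods describe male mice of 8 to 12 weeks on a C57BL/6 background. The EVs were concentrated from WT blood by differential ultracentrifugation and about 2000000000 particles went into each mouse by retro-orbital intravenous injection, while vehicle mice received medium alone. Rag1-/- mice came from a commercial line that lacks mature T and B cells throughout life, so both groups carry the same deficiency and differ in the injection. The WT group (replicates 1, 3 and 6) entered the fit of the spread and is otherwise given only as levels of a few genes. Whether EV libraries moved towards WT was not tested. The WT labels list no treatment, although the WT titles carry the mark for medium. The study counts 3 mice in each RNA-seq group, so each library was taken as a single mouse. The time from injection to dissection was not given in the sources used here.

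Extracellular vesicles are membrane-bound particles that cells shed into blood and that carry proteins, lipids and RNA, including microRNAs. A microRNA pairs through its seed, a short run near its 5′ end, with sites in the 3′ UTR of messenger RNAs and lowers their stability or translation. The PFC holds glutamatergic pyramidal neurons and GABAergic interneurons among astrocytes, oligodendrocytes, microglia and vessels under the meninges, and a bulk library mixes RNA from all of them. In such data fewer cells of a type and less RNA per cell cannot be told apart.

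Elsewhere in the study EVs were loaded with mimics of a pair of microRNAs, miR-23a-3p together with miR-103-3p, and the mature sequences of both are shown, from RefSeq on GRCm38.p6, because the seed matches counted further on rest on them. Capitals mark the seed, bases 2 to 8 counted from the 5′ end. The seeds differ, and miR-103-3p is encoded at a pair of loci with the same mature sequence. miR-23a-3p lies on chromosome 8 from 84208563 to 84208583, and miR-103-3p on chromosome 2 from 131288103 to 131288125 and on chromosome 11 from 35782447 to 35782469, all on the plus strand.
miR-23a-3p: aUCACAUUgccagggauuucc
miR-103-3p: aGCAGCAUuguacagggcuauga

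Rag1, the gene disrupted in both groups, was counted in every library and did not separate them. It stood at 6.8, 7.32 and 6.26 CPM in EV libraries (CPM, counts relative to the library's reads in tested genes after TMM scaling) and at 7.82, 7.04 and 6.85 CPM in vehicle libraries, against 1.09, 0.842 and 0.232 CPM in WT libraries. Counts over the gene (chromosome 2, 101638282 to 101649501, GRCm38) were thus higher, not lower, in the libraries labelled Rag1-/-, and whole-gene counts do not show whether the transcript was functional. Reads in genes numbered 35.1, 33.8 and 32.0 M in EV libraries and 36.0, 38.9 and 41.2 M in vehicle libraries. Reads aligned outside annotated exons took 9.46% ± 1.96 of gene and outside-exon reads in EV libraries and 7.03% ± 0.194 in vehicle libraries (SD, n = 3 each), and mitochondrial genes took 15.8% ± 1.73 and 11.0% ± 2.12 of gene reads. For both shares every EV library lay above every vehicle library, and the 2-sided exact permutation p was 0.1, the smallest that 3 against 3 can give. With this outside-exon share added as a covariate over all 9 libraries, all 613 genes called below remained called in the same direction. WT replicate 6 held 31.1% outside exons, against 6.82% to 11.7% in the others, so the covariate's slope rests largely on that library. The fit therefore cannot show what part the share had in the EV calls. The part of mitochondrial reads in the results was not tested. No 2 libraries of a group agreed within sampling noise. In a principal component analysis of the 6 libraries the first component held 44.2% of the variance and placed EV replicates 2, 3 and 5 at -10.2, -17.5 and -53.6, against 25.5 to 29.3 for the vehicle libraries. EV replicate 5 lay farthest from vehicle on this axis, and the second component (19.7%) set EV replicate 2, at 42.5, apart from the other 5.

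In the libraries from mice given WT EVs, some ribosomal protein, astrocyte, metabolic and meningeal transcripts were higher, and some transcripts for neuronal transcription factors, glutamate and GABA receptors and synaptic proteins were lower. Of 17948 genes tested, 613 (3.42%) passed edgeR's quasi-likelihood test at a Benjamini-Hochberg adjusted p under 0.05, 390 higher (2.17%) and 223 lower (1.24%) after EVs. The changes were small. The median size of the log2 fold change was 0.57 among genes called higher and 0.50 among those called lower, 18 genes were over 2-fold higher and 2 were over 2-fold lower. The EV and vehicle libraries did not overlap for any of the 613, but they did not overlap for 37.0% of all genes tested either (20.1% with EV libraries higher and 16.8% with them lower). The smallest adjusted p was 0.0215, close to the threshold, and 4143 genes (23.1%) had an unadjusted p under 0.05, 12.3% of all genes higher and 10.7% lower. Counts of list members given below are to be read beside these shares, since a count near them shows nothing particular to its list.

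How many genes were called depended on single libraries. Leaving out EV replicate 2, EV replicate 5, vehicle replicate 2 or vehicle replicate 3 left 0 calls by edgeR, with 3518, 2533, 2886 and 3157 genes at an unadjusted p under 0.05. Without vehicle replicate 1 there was 1 call, without EV replicate 3 there were 222, and without WT replicate 1 there were 17. Without WT replicate 3 there were 1317, and without WT replicate 6, which held far more reads outside exons than the other libraries, there were 2985. The 6 libraries alone gave 3289 calls by edgeR (10.2% of genes higher and 9.62% lower) and 3535 by DESeq2 (9.97% higher and 11.3% lower), and DESeq2 on all 9 called 5.36% higher and 6.72% lower. In each of these fits all 613 genes kept the sign of their fold change. They were chosen for a difference in these same counts, with no overlap between groups, so a reversal was hardly possible. Tested against a fold of 1.5 with edgeR, 0 genes passed, with 304 at an unadjusted p under 0.05.

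**Figure D1:**
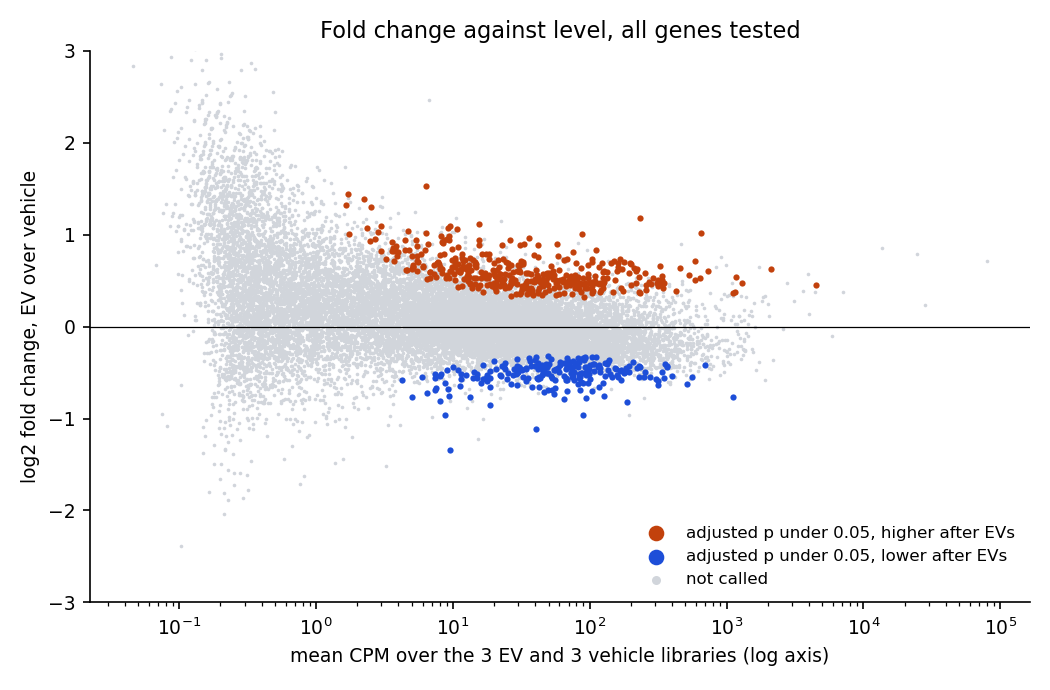
Each point is 1 of 17948 tested genes, with its mean CPM over the 6 libraries on a log axis and its log2 fold change, EV over vehicle, on the vertical axis. Genes called higher (390) and lower (223) lie above 1 CPM on average, and the 4142 genes under 1 CPM, none of them called, have a median log2 fold change of 0.40. The vertical axis is drawn to 3 in each direction and leaves out 12 genes.

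The called genes differed in length and level. Genes called lower had a median exonic length of 7250 bp, those called higher 3860 bp and all tested genes 3930 bp. The share called lower was 0.0886% of genes under 1000 bp and 3.5% of genes over 8000 bp, and the share called higher lay between 1.68% and 2.75% in every length class. The median log2 fold change over all tested genes was 0.04, and it ran from 0.40 under 1 CPM through 0.13 (1 to 10 CPM) and -0.04 (10 to 100 CPM) to -0.13 over 100 CPM. By exonic length it ran from 0.22 under 1000 bp to -0.105 over 8000 bp. With offsets for gene length and GC content 484 of the 613 genes remained called in the same direction, among 412 genes called higher (2.3%) and 354 called lower (1.98%). The replicate block together with these offsets called 3.94% of genes higher and 3.38% lower.

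Ribosomal protein transcripts of both subunits were among those that rose after EVs. Rps14, a protein of the small subunit, stood at 315, 260 and 398 CPM in EV libraries and at 136, 146 and 149 CPM in vehicle libraries. The lowest EV library was well above the highest vehicle library, and the level was 1.18 higher on the log2 scale (SE 0.158, edgeR adjusted p = 0.0215). It was the largest change in its list, in which 12 of 34 members of the small subunit rose and the median log2 fold change was 0.44. Rack1, a scaffold on the small subunit, stood at 156, 138 and 166 CPM in EV libraries, against 95.8, 104 and 104 CPM in vehicle libraries. Rps2 (0.62), Rpsa (0.61) and Rps3 (0.70) also rose by these log2 fold changes. In the large subunit 8 of 49 rose with a median of 0.35, led by Rplp0, a protein of the stalk (164, 144 and 178 CPM in EV libraries, 104, 110 and 108 CPM in vehicle libraries, 0.60 on the log2 scale, edgeR adjusted p = 0.027). Fold changes were above 1 for 33 of 34 and 47 of 49 members, where 55.0% of all genes had one above 1. EV replicate 3 was the lowest EV library for both lists and vehicle replicate 3 the highest vehicle library, with the groups' list medians still apart. Ribosomal protein genes have many near-identical pseudogene copies, so that their counts are uncertain where reads could not be placed, and multimapped reads took 10.9% ± 0.969 of reads in EV libraries and 8.74% ± 0.362 in vehicle libraries (SD, n = 3 each). The part of multimapping in this result was not tested.

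Other parts of the translation and energy machinery moved less. Eef2, which moves the ribosome along the messenger RNA, stood at 1286, 1248 and 1359 CPM in EV libraries and at 1010, 1005 and 981 CPM in vehicle libraries (log2 fold change 0.38, edgeR adjusted p = 0.044). Eif3f and Eef1b2 rose as well, while the initiation factors Eif4g3 (-0.55) and Eif5b (-0.47) fell, so the list of translation factors had 3 of 37 higher, 2 lower and a median of 0.05. Of 75 mitochondrial ribosomal proteins 1 rose (Mrpl12, 0.56), where 2.17% of all tested genes were called higher. Of nuclear subunits of the respiratory chain 1 of 35 in complex I (Ndufc1) and 2 of 40 in complexes II to V (Uqcrq and Cox8a) rose, with medians of 0.13 and 0.14. Proteins encoded by mitochondrial DNA had a median of 0.32 and 0 of 11 called by edgeR, with 2 higher and 1 lower at an unadjusted p under 0.05, and 1 higher and 1 lower by DESeq2. That median was -0.05 in the fit with the replicate block and the offsets. In the main fit it was the value of mt-Co3, which had means of only 1.99 CPM in EV and 1.60 CPM in vehicle libraries. Counts of mt-Co2, mt-Atp6 and mt-Nd3 were as scarce. The abundant mt-Co1 had 14960, 17180 and 20840 CPM in EV libraries and 10120, 10540 and 8600 CPM in vehicle libraries (0.86, edgeR adjusted p = 0.058). The proteasome had 0 of 31 called by edgeR (3 higher and 3 lower at an unadjusted p under 0.05, and 1 lower by DESeq2). Over all tested genes 12.3% were higher and 10.7% lower at an unadjusted p under 0.05.

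Of 30 astrocyte markers 9 rose. Glul, the glutamine synthetase through which astrocytes recycle glutamate, stood at 2615, 2528 and 2615 CPM in EV libraries and at 1777, 1660 and 1574 CPM in vehicle libraries. The EV values lay close together and far above vehicle, 0.63 higher on the log2 scale (SE 0.0948, edgeR adjusted p = 0.0242). Gfap, the astrocyte intermediate filament, stood at 122, 110 and 117 CPM in EV libraries, against 79.0, 53.1 and 42.8 CPM in vehicle libraries, where vehicle replicate 1 was the highest (log2 fold change 1, edgeR adjusted p = 0.0286). Aldoc, the aldolase of astrocytes (0.61), Mlc1, a membrane protein of their endfeet (0.69), Ppp1r3c, which directs glycogen synthesis (0.74), and S100b (0.70) rose too. Of the 30, 29 had a fold above 1 and 26 had EV libraries above vehicle without overlap, with a median of 0.39. Over all tested genes these shares were 55.0% and 20.1%. The water channel Aqp4 (157, 146 and 176 CPM in EV libraries, 129, 117 and 106 CPM in vehicle libraries, 0.45) and the glutamate transporter Slc1a2 (0.37) did not pass, at edgeR adjusted p of 0.0581 and 0.0605. The summed level of the list was 16600 to 16970 CPM in EV libraries and 11660 to 13280 CPM in vehicle libraries.

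Several enzymes of amino acid, fatty acid and peroxide metabolism rose too. These lists were written after some of their members had been seen among the called genes, so their counts describe the comparison and support nothing further. Serine synthesis from glycolysis runs through Phgdh, Psat1 and Psph, and all 3 rose. Phgdh, the first of them, stood at 58.8, 41.0 and 49.5 CPM in EV libraries and at 30.9, 29.8 and 26.6 CPM in vehicle libraries (log2 fold change 0.78, edgeR adjusted p = 0.0286). Psat1 had 120, 114 and 112 CPM in EV libraries and 85.6, 80.6 and 83.4 CPM in vehicle libraries. The glycine cleavage genes Gldc (0.47) and Gcsh (0.41), sarcosine dehydrogenase Sardh (0.67), Cbs (0.52) and the neutral amino acid transporter Slc1a5 (1.33) completed 8 of 17 members higher, with a median of 0.41. Shmt1 and Shmt2, which interconvert serine and glycine, did not pass (-0.39 and 0.14).

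In fatty acid oxidation 12 of 29 members rose with a median of 0.35. Acadl, an acyl-CoA dehydrogenase, stood at 37.7, 39.9 and 30.5 CPM in EV libraries and at 25.3, 23.5 and 22.0 CPM in vehicle libraries (0.61, edgeR adjusted p = 0.0315). The next steps of the cycle were represented by Echs1 (0.35), Hadh (0.62) and Hadhb (0.40), the isomerase Eci1 by 0.60 and the receptor that switches on such genes, Ppara, by 0.71. Acsbg1, an acyl-CoA synthetase also listed among astrocyte markers, had 194, 179 and 187 CPM in EV libraries against 127, 114 and 102 CPM in vehicle libraries. Breakdown of branched-chain amino acids had 5 of 23 higher (Aldh6a1, Mut, Hsd17b10, Hibadh and Pccb) and a median of 0.28. Glutathione and peroxide handling had 8 of 36 higher and a median of 0.23, among them Prdx6, a peroxiredoxin of astrocytes (208, 184 and 200 CPM in EV libraries, 138, 124 and 122 CPM in vehicle libraries, 0.62, edgeR adjusted p = 0.0232), the glutathione transferases Gstm1 (0.49) and Gstm5 (0.52), and Gpx4, which reduces lipid peroxides (0.64). Selenoproteins had 6 of 23 higher, including Selenof (0.59), the deiodinase Dio2 (0.68) and Selenow (0.51). Glycolysis, glycogen and lactate genes as a list had 2 of 27 higher, both also astrocyte markers (Aldoc and Ppp1r3c), and a median of -0.03. Several of these enzymes are most abundant in astrocytes, whose markers rose in the same libraries, and the part of that in the metabolic lists was not tested.

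**Figure D2:**
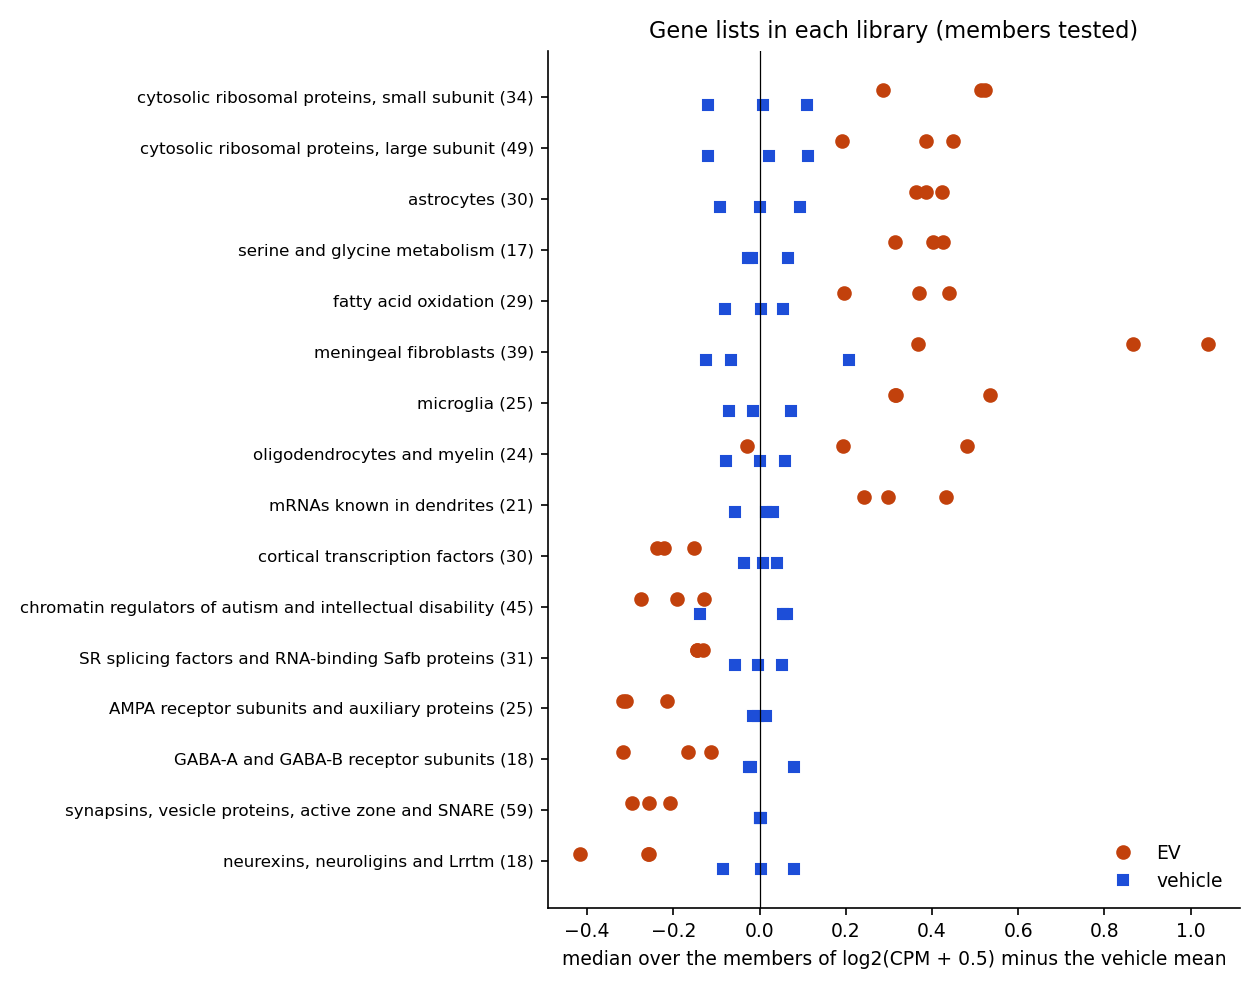
Each row is a gene list with the number of its tested members, and each point is 1 library, given as the median over members of log2(CPM + 0.5) minus the mean of the vehicle libraries (circles for EV, squares for vehicle). The 3 EV libraries lie to the right of all vehicle libraries for ribosomal, astrocyte, metabolic, meningeal, microglial and dendritic lists and to the left for AMPA and GABA receptors and synaptic vesicle proteins, while oligodendrocyte genes and chromatin regulators overlap.

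Retinoid genes included some of the largest increases. Crabp2, which carries retinoic acid to its receptors, had 2.79, 3.34 and 3.62 CPM in EV libraries and 1.43, 1.14 and 1.15 CPM in vehicle libraries (1.38, edgeR adjusted p = 0.0315). Aldh1a1, which makes retinoic acid (0.88), Rlbp1 (0.79) and the retinol dehydrogenase Rdh14 (0.47) rose, and the retinoic acid receptor Rara fell (-0.64). The list, also written after its members' values had been seen, had 5 of 20 higher, 1 lower and a median of 0.22. Crabp2 and Aldh1a1 are also markers of meningeal fibroblasts.

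Meningeal fibroblast markers moved most as a list. All 39 had a fold above 1, as 55.0% of all tested genes did. Of the 39, 7 were called higher and the median log2 fold change was 0.79, the highest of the lists examined. Their summed level was 1055, 1492 and 1773 CPM in EV replicates 2, 3 and 5, against 878, 710 and 675 CPM in vehicle replicates 1, 2 and 3. EV replicate 2 was nearest to vehicle and EV replicate 5 farthest from it. Ptgds, a prostaglandin D synthase made in meninges and oligodendrocytes, had 621, 904 and 1093 CPM in EV libraries against 496, 405 and 394 CPM in vehicle libraries (1.02, edgeR adjusted p = 0.0462). It made up most of the summed level in every library, so the order of the sum is largely its own. Mrc2, a collagen receptor (1.12), the GABA transporter Slc6a13 (0.95), Bmp6 (0.99) and the transcription factor Zic4 (1.30) also rose. In WT libraries Ptgds stood at 300, 385 and 199 CPM, below both other groups. Aldh1a1, also called, differed, since its WT libraries (60, 42.1 and 57.4 CPM) lay near its EV mean of 54.6 CPM. Dcn, the proteoglycan decorin, had 8.77, 13.4 and 14 CPM in EV libraries and 7.87, 5.39 and 4.90 CPM in vehicle libraries, and did not pass (edgeR adjusted p = 0.0573). Col1a1 overlapped between groups, at 21.1, 24.8 and 30 CPM in EV libraries and 23.1, 13.8 and 8.41 CPM in vehicle libraries. How much meninges each dissection held cannot be told apart from a change within those cells.

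Among microglial genes 3 of 25 rose (13 higher at an unadjusted p under 0.05, 6 higher by DESeq2), with a median of 0.39. C1qb, a subunit of the complement component that microglia make, stood at 38.0, 35.4 and 46.1 CPM in EV libraries and at 24, 28.2 and 22.1 CPM in vehicle libraries (0.69, edgeR adjusted p = 0.0343), and Siglech (0.59) and Tyrobp (0.54) rose as well. Cx3cr1 (0.10) and P2ry12 (0.17) did not pass. Oligodendrocyte genes had 2 of 24 higher, Ptgds and Plekhb1 (8 higher at an unadjusted p under 0.05, 5 higher by DESeq2), and a median of 0.22. Myelin basic protein Mbp stood at 1481, 1146 and 1052 CPM in EV libraries and at 792, 717 and 809 CPM in vehicle libraries without passing (0.67, edgeR adjusted p = 0.12), and EV replicate 2 was the highest library of the list. Pericyte and smooth muscle genes had 0 of 14 called by edgeR (5 higher at an unadjusted p under 0.05, 3 higher by DESeq2) and a median of 0.41. Endothelial genes had 0 of 21 called (2 higher at an unadjusted p under 0.05, 1 higher by DESeq2) and a median of 0.24, and oligodendrocyte precursor genes 0 of 14 (2 higher at an unadjusted p under 0.05, 0 by DESeq2) and a median of 0.18. Choroid plexus and ependymal genes had 0 of 10 called (2 higher and 1 lower at an unadjusted p under 0.05, 0 by DESeq2), at summed levels of 10.9 to 12.7 CPM in EV libraries and 6.92 to 10.1 CPM in vehicle libraries. Interferon-stimulated and MHC class I genes had 0 of 35 called (7 higher at an unadjusted p under 0.05, 3 higher by DESeq2) and a median of 0.30.

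Most blood cell genes were scarce in both groups. Of 26 T and B lymphocyte genes 9 had enough reads to test, 0 were called by edgeR (1 higher at an unadjusted p under 0.05, 0 by DESeq2), and the defining genes Cd3e, Cd3d, Cd3g, Cd8a, Cd79a and Ms4a1 were too low to test. Red blood cell and neutrophil genes summed to 6.63, 27.5 and 9.20 CPM in EV libraries and to 72.1, 3.93 and 23.1 CPM in vehicle libraries, with vehicle replicate 1 far above the rest and 0 of 9 called (0 at an unadjusted p under 0.05 and 0 by DESeq2).

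Some transcripts known to travel into dendrites rose. Camk2a, the CaMKII subunit of excitatory synapses, stood at 4685, 5152 and 5839 CPM in EV libraries and at 4010, 3913 and 3567 CPM in vehicle libraries (log2 fold change 0.45, edgeR adjusted p = 0.0462). Ddn, a dendritic protein of the postsynapse, had 1374, 1201 and 1578 CPM in EV libraries and 940, 986 and 925 CPM in vehicle libraries (0.54, edgeR adjusted p = 0.0423). Psd (0.56), the spine scaffold Ppp1r9b (0.48) and Eef2 (0.38) made up 5 of 21 called higher in a list written after Camk2a, Ddn and Ppp1r9b had been seen, with a median of 0.30. Camk2n1 (0.48), Dlgap3 (0.39) and Shank3 (0.44) lay just outside the threshold at edgeR adjusted p of 0.0507, 0.0517 and 0.0528, and Arc, the activity-regulated dendritic mRNA, had a log2 fold change of 0.00 (edgeR adjusted p = 0.997). Postsynaptic scaffolds and CaMKII as a list had a median of 0.05 with Camk2a as the 1 of 27 called by edgeR. Members moved both ways, with 8 higher and 3 lower at an unadjusted p under 0.05, and 7 higher and 3 lower by DESeq2.

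**Figure D3:**
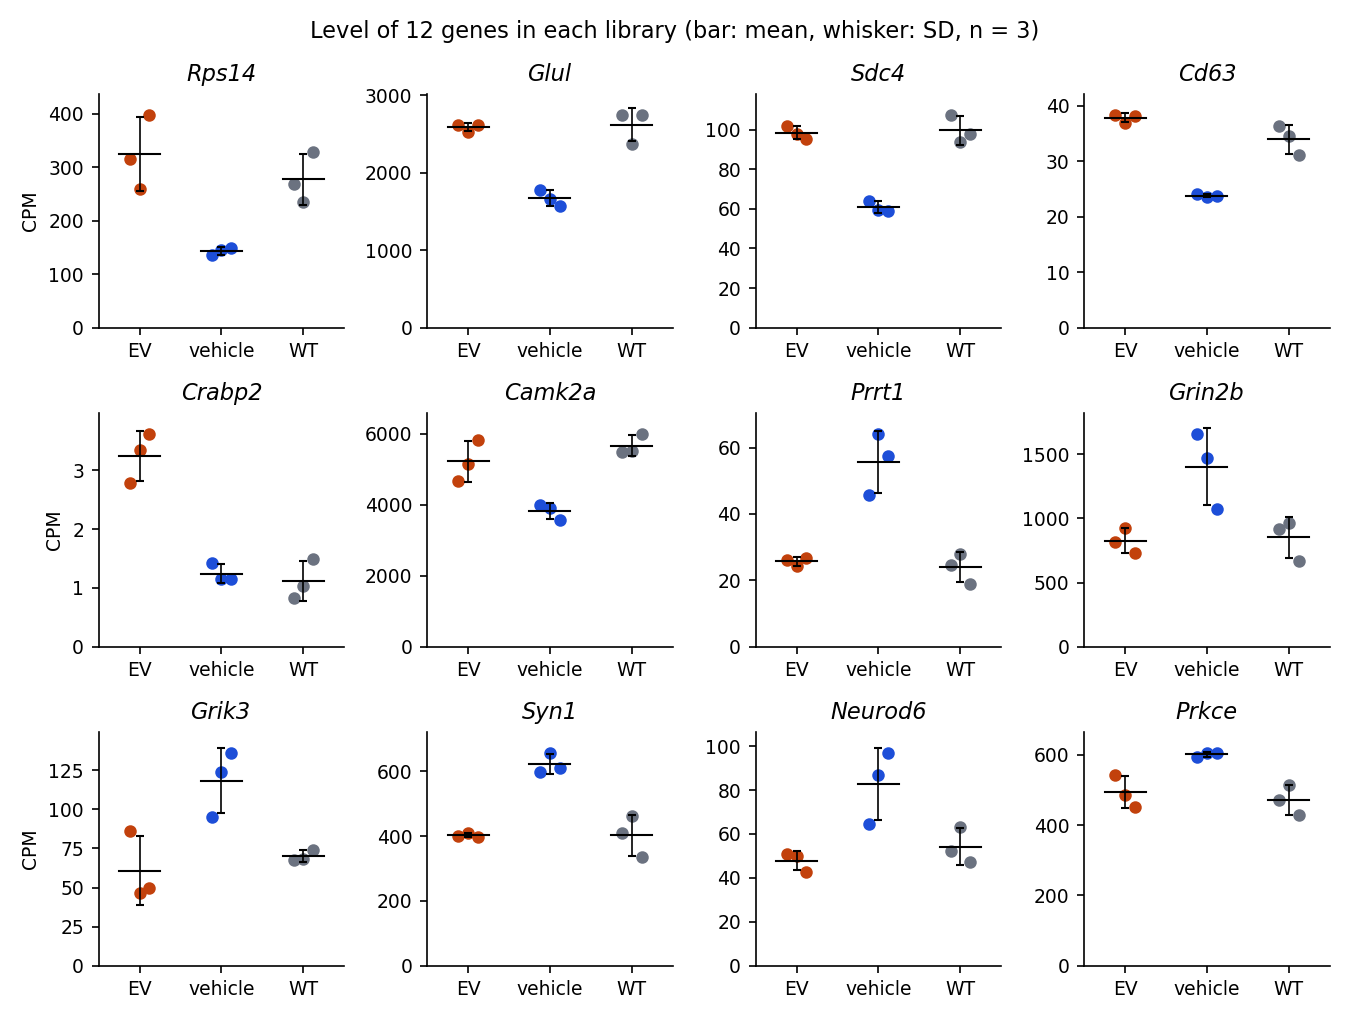
Each panel shows the CPM of 1 gene in every library, with EV left of vehicle and the WT libraries at the right, a bar for the mean and a whisker for the SD (n = 3). In the panels of Rps14, Glul, Sdc4, Cd63, Crabp2 and Camk2a the EV points lie above all vehicle points, and in those of Prrt1, Grin2b, Grik3, Syn1, Neurod6 and Prkce below them.

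Several transcription factors of pyramidal neurons fell. Neurod6, a factor of excitatory cortical neurons, stood at 51.0, 49.8 and 42.7 CPM in EV libraries and at 64.6, 86.7 and 97.0 CPM in vehicle libraries (-0.79, SE 0.153, edgeR adjusted p = 0.0312). Tbr1 (-0.39), Foxp1 (-0.43), Bcl11a (-0.47) and the neuronal repressor Myt1l (-0.55) fell too. In all 6 of 30 cortical transcription factors fell, with a list median of -0.22. Members moved both ways, with 14 lower and 3 higher at an unadjusted p under 0.05, and 12 lower and 3 higher by DESeq2. The 8 defining markers of pyramidal neurons split, with Camk2a higher and 3 lower, among them Neurod6 and Tbr1. Deep-layer markers had 2 of 23 lower (Foxp1 and Sulf2) and a median of -0.43. Within that list the libraries of a group differed, since EV replicate 2 (list median -0.03) lay inside the vehicle range of -0.34 to 0.35 while EV replicates 3 and 5 lay at -0.54 and -0.57. Fezf2, which specifies subcortical projection neurons, had 15.7, 17.2 and 16.3 CPM in EV libraries and 18.5, 29.9 and 35.5 CPM in vehicle libraries, just outside the threshold (-0.77, edgeR adjusted p = 0.0517). Upper-layer markers had 0 of 18 called by edgeR (1 higher and 3 lower at an unadjusted p under 0.05, 1 higher and 2 lower by DESeq2) and a median of -0.06. Among interneuron markers 1 of 31 fell, Lhx6, a factor of interneurons from the medial ganglionic eminence (8.83, 10.1 and 8.97 CPM in EV libraries, 14, 13.8 and 13.5 CPM in vehicle libraries, -0.57). The peptide Sst (-0.37), Pvalb (0.10) and Vip (0.02) did not pass.

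Among glutamate receptor genes most of those that fell encode auxiliary proteins. Prrt1, a protein of AMPA receptor complexes (chromosome 17, 34629533 to 34633126), stood at 26.1, 24.2 and 26.8 CPM in EV libraries and at 45.6, 64.2 and 57.5 CPM in vehicle libraries, against 24.7, 28.0 and 19.0 CPM in WT libraries. The EV values were tightly grouped below every vehicle value, and the change of -1.12 on the log2 scale (SE 0.151, edgeR adjusted p = 0.0215) was the largest fall among the coding genes called. Shisa7 (-0.63), Shisa9 (-0.43) and Shisa6 (-0.61), relatives that bind AMPA or GABA-A receptors, fell as well, making 4 of 25 in the AMPA list. Its median was -0.24, and 15 members had EV libraries below vehicle, as 16.8% of all tested genes did. The pore subunits Gria1 (309, 276 and 259 CPM in EV libraries, 332, 374 and 412 CPM in vehicle libraries, -0.41) and Gria2 (-0.18) did not pass, at edgeR adjusted p of 0.0595 and 0.346. Grin2b, an NMDA receptor subunit (chromosome 6, 135713233 to 136173511), had 817, 926 and 731 CPM in EV libraries and 1659, 1472 and 1075 CPM in vehicle libraries, where vehicle replicate 3 was the lowest (-0.77, SE 0.176, edgeR adjusted p = 0.044). Grin2a had the same order of libraries without passing (449, 529 and 413 CPM in EV libraries, 808, 676 and 521 CPM in vehicle libraries, -0.53, edgeR adjusted p = 0.12). Grin2c, the NMDA subunit known for astrocytes as well as neurons, rose (0.49, edgeR adjusted p = 0.0478). The kainate receptor subunit Grik3 had 86.2, 46.5 and 49.8 CPM in EV libraries and 95.3, 124 and 136 CPM in vehicle libraries (-0.96, edgeR adjusted p = 0.0382), with EV replicate 2 close to vehicle replicate 1, and its auxiliary Neto1 fell (-0.39). Metabotropic receptors had 0 of 7 called by edgeR (3 lower at an unadjusted p under 0.05, 2 lower by DESeq2) and a median of -0.20.

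Of 18 GABA receptor transcripts 3 fell. Gabbr2, a subunit of the metabotropic GABA-B receptor, stood at 317, 352 and 303 CPM in EV libraries and at 495, 461 and 455 CPM in vehicle libraries (-0.54, edgeR adjusted p = 0.0481). Gabrb1 (-0.44) and Gabrg3 (-0.52) of the GABA-A receptor fell too, with a list median of -0.17. Gphn, which encodes the inhibitory scaffold gephyrin, had 57.0, 62.8 and 55.3 CPM in EV libraries and 68.1, 60.2 and 63.6 CPM in vehicle libraries and overlapped (-0.13, edgeR adjusted p = 0.403). Gad1, the main GABA-synthesising enzyme, had 220, 258 and 183 CPM in EV libraries and 297, 251 and 231 CPM in vehicle libraries (-0.24, edgeR adjusted p = 0.544). The list of inhibitory scaffolds, GABA synthesis and transport had 1 of 24 higher (Slc6a13, also a meningeal marker), 1 lower (Shisa7) and a median of -0.11.

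Of 59 presynaptic genes 2 fell, where 1.24% of all tested genes were called lower. Syn1, which tethers synaptic vesicles, stood at 400, 410 and 398 CPM in EV libraries and at 598, 657 and 611 CPM in vehicle libraries (-0.63, SE 0.113, edgeR adjusted p = 0.0295). The groups were far apart and the 3 EV libraries nearly equal. Dnm3, a dynamin (-0.52), was the other called in the list of synapsins, vesicle, active zone and SNARE genes, whose median was -0.26. Of its members 31 had EV libraries below vehicle without overlap, as did 16.8% of all tested genes. Nsf, the ATPase that takes SNARE complexes apart, had 676, 652 and 552 CPM in EV libraries and 856, 843 and 876 CPM in vehicle libraries without passing (-0.45, edgeR adjusted p = 0.102). Snap25 (-0.36) and Vamp2 (-0.23) did not pass. Adhesion molecules of the synapse had 2 of 18 lower, Lrrtm2 (-0.62) and Flrt2 (-0.45), and a median of -0.30. Chgb, a granin of dense-core vesicles, fell (152, 139 and 111 CPM in EV libraries, 218, 254 and 240 CPM in vehicle libraries, -0.82, edgeR adjusted p = 0.0456).

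Both ion channel lists had medians below 0, as did all tested genes over 100 CPM (-0.133) and over 8000 bp (-0.105). Potassium channels had 4 of 53 lower, among them Kcnd3 (-0.58), Kcng1 (-0.64) and Kcnk9 (-0.43), 1 higher, Kcnt2 (0.61), and a median of -0.21. Over all tested genes 1.24% were called lower and 2.17% higher. Kcnt2, a sodium-activated potassium channel, stood at 157, 190 and 227 CPM in EV libraries and at 133, 123 and 120 CPM in vehicle libraries. Voltage-gated sodium and calcium channels had a median of -0.36 with 0 of 23 called by edgeR (13 lower and 1 higher at an unadjusted p under 0.05, 9 lower by DESeq2). The sodium channel Scn2a, for instance, had 566, 542 and 441 CPM in EV libraries and 716, 766 and 682 CPM in vehicle libraries (-0.48, edgeR adjusted p = 0.0876).

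Of 35 activity-regulated genes 2 fell, Egr3 and Trib1, and none rose (9 lower and 0 higher at an unadjusted p under 0.05, 7 lower and 0 higher by DESeq2), with a median of -0.20. Fos, which neurons induce within minutes of firing, stood at 33.8, 25.5 and 11.8 CPM in EV libraries and at 19.8, 48.0 and 38.7 CPM in vehicle libraries, with groups that overlapped (-0.58, edgeR adjusted p = 0.428). Egr3, another induced factor, fell (135, 159 and 123 CPM in EV libraries, 204, 194 and 185 CPM in vehicle libraries, -0.49, edgeR adjusted p = 0.035), as did Trib1 (-0.63). Egr1 lay just outside the threshold with no overlap, at 148, 148 and 99.9 CPM in EV libraries and 180, 328 and 262 CPM in vehicle libraries (-0.96, edgeR adjusted p = 0.056). Fosb (-0.81), Egr4 (-0.62) and Npas4 (-1) did not pass, and their groups overlapped. Receptors for monoamines and peptides had 1 lower of 17 (Htr1b, -0.68) and 1 lower of 25 (the opioid receptor Oprd1, -0.51), the second list also holding Ntsr2 (0.42), an astrocyte marker that rose.

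Regulators of chromatin and RNA in the nucleus were among the genes with the smallest p-values. Zc3h13, a part of the complex that methylates adenosine in messenger RNA (chromosome 14, 75284373 to 75344426), stood at 41.4, 40.2 and 39.2 CPM in EV libraries and at 63.2, 70.7 and 61.1 CPM in vehicle libraries. The 3 EV libraries lay within a narrow band far below vehicle (log2 fold change -0.69, SE 0.0819, edgeR adjusted p = 0.0215). Of 45 chromatin regulators linked to autism and intellectual disability 3 fell, among them Pogz (-0.41) and Setd5 (-0.34), with a median of -0.23. Safb, which binds RNA and nuclear matrix, had 41.7, 36.3 and 36.9 CPM in EV libraries and 58.3, 68.2 and 58.5 CPM in vehicle libraries (-0.69, edgeR adjusted p = 0.0242), and the neuronal splicing regulator Srrm4 (-0.56) and Luc7l (-0.41) fell with it, 3 of 31 in the splicing list. Nuclear long non-coding RNAs had a median of 0.64 but 0 of 15 called by edgeR (1 lower at an unadjusted p under 0.05, 1 lower by DESeq2). Their level followed single libraries, as in Snhg11 at 71.8, 86.9 and 162 CPM in EV libraries and 50.4, 62.6 and 57.7 CPM in vehicle libraries, and without EV replicate 5 the list median was 0.23. Gm26917, the most abundant member, had 32200, 25610 and 36460 CPM in EV libraries and 23110, 21150 and 10240 CPM in vehicle libraries (0.79, edgeR adjusted p = 0.248). With the outside-exon share added as a covariate, whose slope rests largely on WT replicate 6, the list median was 0.17.

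The genes called higher with the smallest p-values were Sdc4 and Cd63. Sdc4, a heparan sulfate proteoglycan of the cell surface (chromosome 2, 164424247 to 164443887), stood at 102, 97.9 and 95.3 CPM in EV libraries and at 64.1, 59.5 and 58.9 CPM in vehicle libraries, against 108, 93.7 and 97.6 CPM in WT libraries (0.69, SE 0.0822, edgeR adjusted p = 0.0215). Cd63, a tetraspanin of late endosomes that is also a common marker of EVs, had 38.4, 36.9 and 38.2 CPM in EV libraries and 24.1, 23.6 and 23.7 CPM in vehicle libraries (0.67, SE 0.083, edgeR adjusted p = 0.0215). Both groups of 3 were nearly constant for Cd63. It was the 1 member called higher of 34 genes for vesicle release and microRNA function, in which the GW182 proteins Tnrc6b (-0.49) and Tnrc6c (-0.45), partners of Argonaute in microRNA silencing, fell and the median was -0.15. Csrp1, a LIM domain protein (0.70), the carboxypeptidase Cpq (0.84), the succinyl-CoA ligase subunit Suclg2 (0.74) and the calcium-binding S100a1 (0.89) followed. Raph1, which links signalling to actin at the leading edge (-0.69), Nos1ap, an adaptor of neuronal nitric oxide synthase (-0.70), and Sec24b of the COPII coat (-0.50) were among the 10 falls with the smallest p-values. Rny3, a small RNA of the Ro particle, had the largest fall of any gene called (5.40, 2.97 and 7.83 CPM in EV libraries, 11.2, 12.2 and 17.6 CPM in vehicle libraries, -1.34, SE 0.303, edgeR adjusted p = 0.0421), and Nlrp5-ps, a pseudogene with 40.5% of its exons shared with another gene, the largest rise (1.53, SE 0.299, edgeR adjusted p = 0.0313). The most abundant transcripts called lower, beside Grin2b, were Gas7 (581, 631 and 577 CPM in EV libraries, 785, 802 and 798 CPM in vehicle libraries) and Rasgrp1 (461, 512 and 382 CPM in EV libraries, 683, 627 and 670 CPM in vehicle libraries).

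Prkce, the gene of protein kinase C epsilon, is described whatever its change because the study followed it as a microRNA target. It stood at 542, 486 and 453 CPM in EV libraries and at 593, 606 and 605 CPM in vehicle libraries, against 473, 515 and 430 CPM in WT libraries. Every EV library lay below every vehicle library, and the log2 fold change of -0.29 (SE 0.0984) had an unadjusted p of 0.0143 and an edgeR adjusted p of 0.118. It passed by DESeq2 on all 9 libraries (adjusted p = 0.0162) and on the 6 compared (0.00473), by edgeR on those 6 (0.0343) and without WT replicate 6 (0.038), and in the other alternatives the adjusted p ran between 0.0612 and 1. Among 14 protein kinase C isoforms edgeR called 1, and DESeq2 on all 9 libraries called 2 higher and 3 lower, Prkce and Prkci among the lower. The 1 called by edgeR was Prkcd, which rose (6.42, 5.82 and 5.94 CPM in EV libraries, 4.07, 3.93 and 3.79 CPM in vehicle libraries, 0.62, edgeR adjusted p = 0.0426). The 3′ UTR of Prkce (chromosome 17, 3232 bp, GENCODE M21) held 1 match of 7 bases to the miR-103-3p seed, at bases 27 to 33, and none to the miR-23a-3p seed. Only such matches in 1 annotated UTR were searched, and other kinds of site were not. The window from base 11 to base 40 of that UTR is shown because it holds the match, in capitals.
Prkce site: cggatggagggagctcATGCTGCaaggacg

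A larger share of genes called lower held a seed match than of all tested genes, and their 3′ UTRs were longer, as a description with no test. A 7-base match to the seed, AATGTGA for miR-23a-3p and ATGCTGC for miR-103-3p on the mRNA strand, was counted in the 3′ UTR of each tested coding gene. For miR-23a-3p, 29.4% of 218 genes called lower, 12.3% of 374 called higher and 17.0% of 14369 tested genes held one. For miR-103-3p the shares were 27.1% of genes called lower, 9.09% of those called higher and 13.3% of all. The median 3′ UTR was 2530 bp in genes called lower, 1020 bp in those called higher and 1220 bp in all, and the shares are therefore also given within classes of length. Over 4000 bp, 47.5% of 59 genes called lower and 46.2% of 1216 tested genes held a miR-23a-3p match, and 39.0% and 36.7% a miR-103-3p match. From 2000 to 4000 bp the miR-23a-3p shares were 36.1% of 72 genes called lower and 28.5% of 3222 tested, and the miR-103-3p shares 34.7% and 24.1%. Between 1000 and 2000 bp 15.4% of 52 genes called lower and 16.6% of 3718 tested held a miR-23a-3p match, and 13.5% and 11.7% a miR-103-3p match. Under 1000 bp the miR-23a-3p shares were 5.71% of 35 genes called lower and 5.57% of 6213 tested, and the miR-103-3p shares 11.4% and 4.18%. Over all tested genes the median log2 fold change was -0.06 with a miR-23a-3p match and 0.02 without one, and -0.06 with a miR-103-3p match and 0.02 without one, and these medians were not compared within classes of length. A match of letters is not a binding site, and the levels of these microRNAs in the PFC were not measured here.

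**Figure D4:**
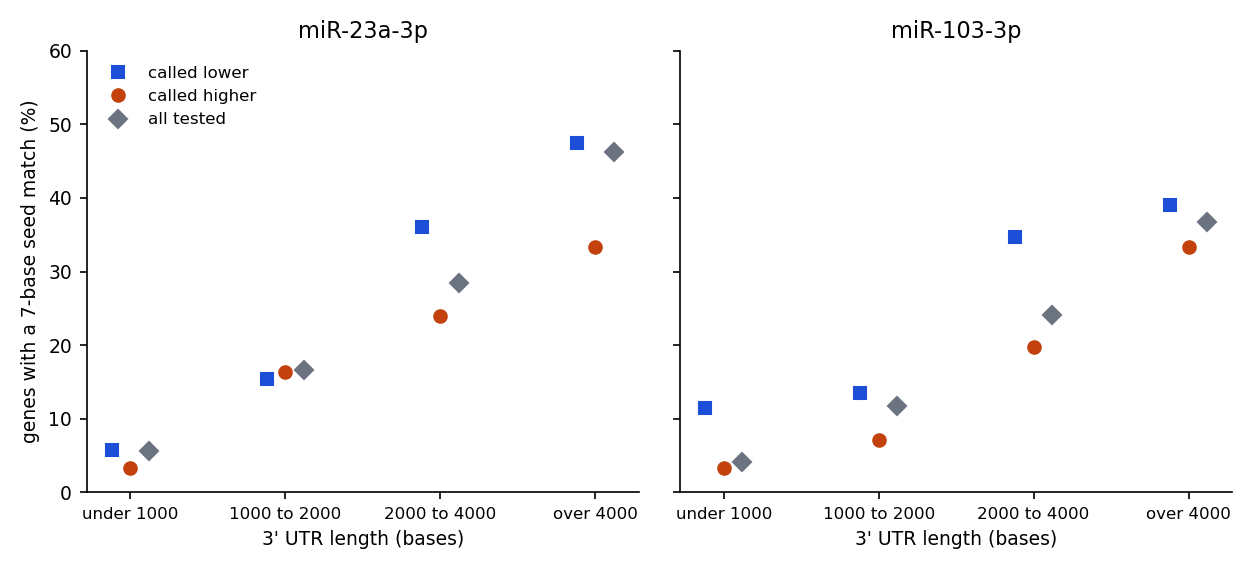
The vertical axis gives the percentage of genes whose 3′ UTR holds a 7-base match to the seed of miR-23a-3p (left) or miR-103-3p (right), and the horizontal axis 4 classes of 3′ UTR length. Squares stand for genes called lower, circles for genes called higher and diamonds for all tested genes, and the shares climb with length in all 3 sets, to 47.5%, 33.3% and 46.2% for miR-23a-3p over 4000 bp.

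**Figure D5:**
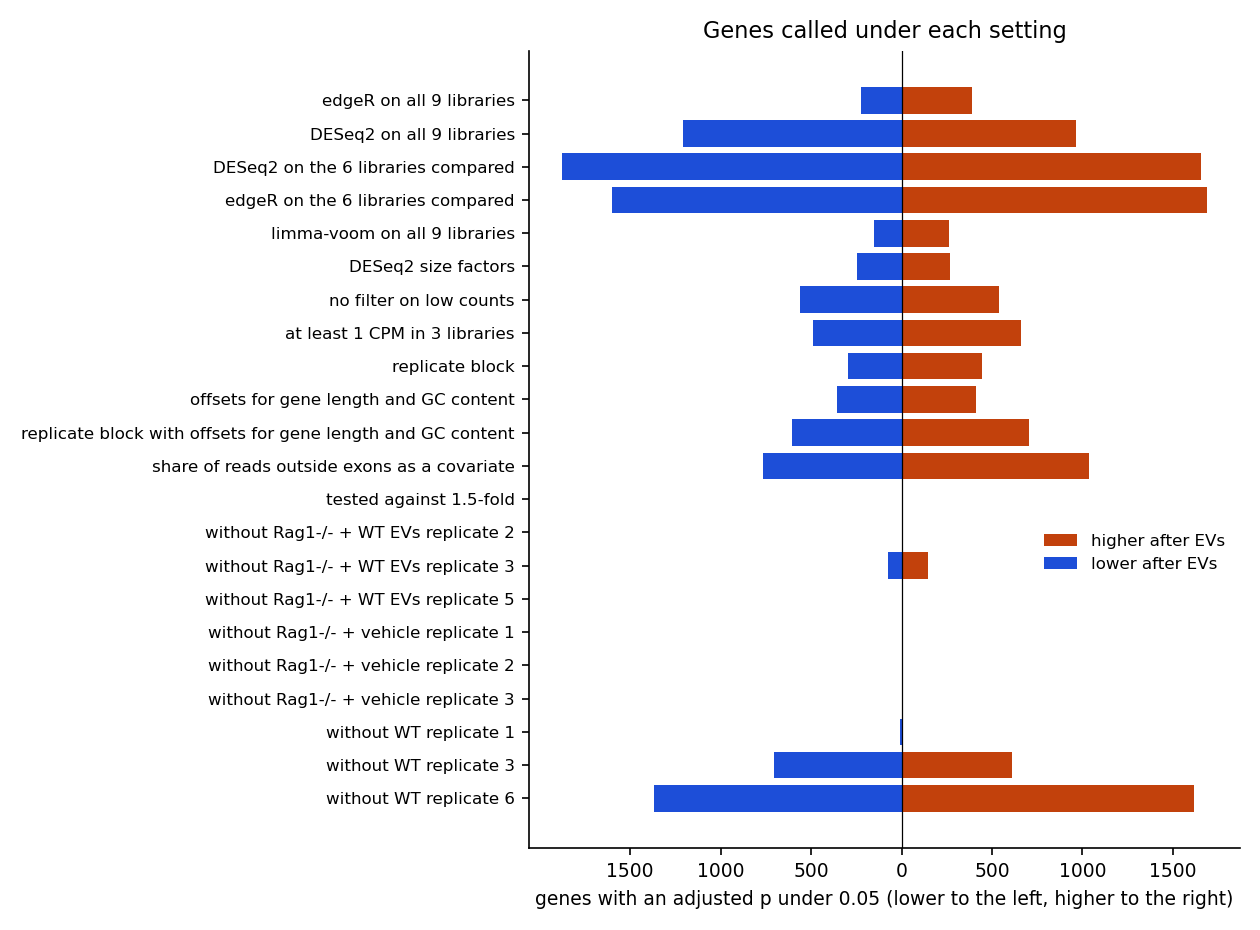
Bars give the number of genes with an adjusted p under 0.05 under each test, filter, covariate or left-out library, with genes higher after EVs to the right and genes lower to the left. The count runs from 0, when any of EV replicates 2 and 5 and vehicle replicates 2 and 3 is left out or when a fold of 1.5 is tested, to 3535 with DESeq2 on the 6 libraries compared.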

How the data were processed

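RNA of the PFC was sequenced as 75-bp read pairs from a directional kit. The authors aligned reads with STAR 2.7.5c to GRCm38 (GENCODE M24) and counted read pairs over exons per gene with HTSeq (0.11.1 in the labels, 0.12.3 in the methods) without using strand, so a gene and its antisense partner cannot be told apart. The deposited values are raw counts, 1 column per library, of 56246 genes, and 5 summary rows that name no gene were left out of library sizes and tests, except for the shares of reads they hold.

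One edgeR 4.0.16 model in R 4.3.3 held all 9 libraries. It used TMM factors and kept genes by filterByExpr (at least 10 reads, at least 15 in total). The quasi-likelihood test was 2-sided. A gene was called at an adjusted p (Benjamini-Hochberg, over 17948 genes) under 0.05. For the SE, the absolute log2 fold change was divided by the root of the F statistic. Total counts of 32.0 to 41.2 M in the 6 libraries and 3 libraries per group limit precision. List medians are of fitted log2 fold changes, and list levels of log2(CPM + 0.5). Names and positions came from GENCODE M21 (98.2% of identifiers matched), the longest 3′ UTR of each gene from its coding transcripts, and microRNAs from RefSeq. The steps were tested on simulated data.

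Named genes were a fixed set (Rag1, Rag2, Prkce, Gphn, Nsf, Camk2a and Fos), and, among called genes at 1 CPM or more without overlap, for each direction at most 10 coding genes by fold, 10 by p, 6 by level and 4 non-coding ones, with at most 4 of each list by p. Genes outside this rule, and members that did not pass, were chosen after their values were seen. The members and lists were chosen with earlier results of these data known. Rag2 was too low to test. Replicate numbers are shared by 2 pairs (2 and 3). Their residual correlations were 0.02 and -0.07, so that the numbers were not taken to pair the mice. Alternatives were DESeq2 1.42.0, limma-voom 3.58.1, other scaling, filters, covariates and a fold threshold, and each library left out. A few called or tested genes are not reported here.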

Additional observations from a re-analysis of the deposited data

Results flagged for a closer look

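Reads outside annotated exons, which the gene comparisons do not use, took 2.43 percentage points more of gene and outside-exon reads in EV libraries than in vehicle libraries (8.62%, 8.06% and 11.7% in EV replicates 2, 3 and 5, against 7.08%, 7.20% and 6.82% in vehicle replicates 1, 2 and 3). All 3 EV libraries lay above all 3 vehicle libraries, and the 2-sided exact permutation p was 0.1. EV replicate 5 was the highest, and without it the difference was 1.31 percentage points.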

How the results depend on the processing

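All 613 called genes kept the sign of their fold change in each of 21 alternative fits. The genes were chosen on these same counts, with no overlap between groups, so that agreement was largely fixed in advance. Counts of called genes changed more. DESeq2 called 2169 genes on all 9 libraries (962 higher, 1207 lower) and 3535 on the 6 libraries compared (1657 and 1878), and edgeR on those 6 called 3289 (1691 and 1598). Without a filter on low counts 1102 were called (540 higher, 562 lower), at 1 CPM or more in 3 libraries 1149 (660 and 489), with the outside-exon share added as a covariate 1800 (1036 and 764), and with offsets for gene length and GC content 766 (412 and 354). Against a 1.5-fold change edgeR called 0 (0 higher, 0 lower), with 304 at an unadjusted p under 0.05. limma-voom called 415 and DESeq2 size factors 512 (266 higher, 246 lower). Leaving out single libraries gave 0 to 2985 calls, 0 to 1618 higher and 0 to 1367 lower. The replicate block called 741 (446 higher, 295 lower) and kept 381 of the 613, and the replicate block with offsets called 1311 (705 and 606). Of 142 called genes named here or eligible for naming, 108 remained called with the block. The difference in reads outside exons between EV and vehicle libraries was 2.43 percentage points. With other denominators or a library left out it moved by less than the SD of the EV libraries (1.96, against 0.194 in vehicle libraries). EV replicate 5, at 11.7%, widens that SD itself, so this yardstick could hardly register its removal. List medians changed sign in at least 1 alternative for upper-layer markers, striatal markers, translation factors, mitochondrial ribosomal and mitochondrially encoded proteins, glycolysis, cholesterol synthesis, lymphocyte genes, postsynaptic scaffolds, monoamine receptors and small non-coding RNAs. Matches of 8 bases instead of 7 were held by 12.4% of genes called lower, 4.28% of those called higher and 7.24% of all for miR-23a-3p, and by 9.17%, 2.41% and 4.01% for miR-103-3p. The cause of these changes was not tested, except that 8-base matches are rarer by construction. None of the 4142 genes under 1 CPM was called by edgeR on all 9 libraries.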

Other observations

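The remaining lists gave few calls, where edgeR called 2.17% of all tested genes higher and 1.24% lower. Striatal neuron genes, which a wide dissection could include, had 0 of 15 called by edgeR (2 lower at an unadjusted p under 0.05, 1 lower by DESeq2) and a median log2 fold change of 0.17, which was below 0 without EV replicate 2. Olfactory bulb and neuroblast genes had 0 of 8 called (1 higher and 2 lower at an unadjusted p under 0.05, 0 by DESeq2) and a median of -0.14. Cholesterol synthesis, of which astrocytes supply much to neurons, had 0 of 20 called by edgeR (2 higher and 1 lower at an unadjusted p under 0.05, 0 by DESeq2) and a median of 0.04. The circadian clock had 0 of 23 called (4 lower at an unadjusted p under 0.05, 2 lower by DESeq2) and a median of -0.14. Heat shock genes had 1 of 25 higher, Hspb8, a small chaperone (12.5, 14.7 and 16.4 CPM in EV libraries, 9.72, 9.22 and 8.57 CPM in vehicle libraries, 0.66, edgeR adjusted p = 0.0295). Glucocorticoid targets and metallothioneins had 2 of 20 higher, Sult1a1 (0.94) and the brain metallothionein Mt3 (0.53). Of BMP, TGF-beta and Id genes 3 of 37 rose, Id4 (0.49), Bmpr1b (0.42) and Bmp6 (0.99), and 1 fell, Bmp3 (30.4, 27.6 and 29.8 CPM in EV libraries, 36.0, 47.3 and 55.3 CPM in vehicle libraries, -0.66, edgeR adjusted p = 0.0382). Tubulins, neurofilaments and microtubule proteins had 1 of 30 higher (Tubb2b, 0.56) and 1 lower (Ina, -0.46). Among small non-coding RNAs and histones Scarna2 rose (98.1, 73.4 and 116 CPM in EV libraries, 49.3, 58.9 and 55.7 CPM in vehicle libraries, 0.81, edgeR adjusted p = 0.0343). Ptprc, the common leukocyte antigen, rose (3.99, 4.35 and 5.45 CPM in EV libraries, 2.73, 2.74 and 2.31 CPM in vehicle libraries, 0.83, edgeR adjusted p = 0.0462), while Cd3e and Cd3d were too low to test.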
